A study of Xenopus laevis with 14 samples.

Results

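Whole-brain RNA of *Xenopus laevis* tadpoles edited in *ap3b2* was compared directly with that of tadpoles edited in *eef1a2*. Members were the 9 CRISPant libraries of a series of 14, chosen by the edited gene in their labels: 4 *ap3b2* CRISPant and 5 *eef1a2* CRISPant libraries. The other 5 are controls, which are given for their levels and entered the fit between the edited groups in 1 alternative alone. The comparison asks which genes are specific to 1 of the edited genes, and how large a difference could have been missed.

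All 14 libraries came from NF stage 47 tadpoles raised from the eggs of 2 females in a wild-type background, and all embryos had been injected with Cas9 protein. In the *ap3b2* group Cas9 was bound to a guide against *ap3b2*, by the study's methods its S homeolog, and in the *eef1a2* group to a guide against *eef1a2*. Controls received Cas9 with a scrambled guide that has no target. Both edits were designed to truncate the protein, and the tadpoles were mosaic F0 animals, so that each brain held edited and unedited cells. Truncation was not the sole outcome for *ap3b2*. In most sequenced samples the study also found an in-frame deletion, predicted to leave the protein almost whole. This deletion lies in a conserved C-terminal domain, and the study proposes from the phenotype that it too is pathogenic. The study describes the editing of *ap3b2* as high, and as less than a complete knockout. It does not give the extent of editing of *eef1a2*, and the labels do not say which *eef1a2* homeolog was targeted. How far *eef1a2* was disrupted is therefore not known here, which limits the reading of a lack of differences. Each library pooled 6 brains, and single animals cannot be separated. The series text gives 5 replicates a condition, and 4 *ap3b2* libraries were analysed here. Libraries of a group are separate groups of dissected tadpoles, and p-values measure the spread between such pools.

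The genes act in different parts of the neuron. *ap3b2* encodes the neuronal beta subunit of adaptor protein complex 3 (AP-3), a coat that selects cargo proteins for vesicles leaving endosomes and for some synaptic vesicles. *eef1a2* encodes the form of elongation factor 1A that neurons and muscle use after development, which carries aminoacyl-tRNA to the ribosome. Loss or alteration of the human genes is known from developmental and epileptic encephalopathies. *X. laevis* is an allotetraploid, so most genes exist as an L and an S homeolog, which are counted as separate genes here.

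Read pairs counted on genes numbered 36563581 to 42568144 in the 9 CRISPant libraries and up to 46745977 in controls. Before the scaling described next, 1 CPM, the unit of level used here, stood for 36.56 to 42.6 counts in the CRISPants. CPM are counts relative to the library total, scaled by trimmed mean of M values (TMM) over the 14 libraries. CPM values are not divided by gene length, and levels of different genes are therefore not compared. The tissue label was checked against marker lists: 30 neuronal genes summed to 8600 to 8915 CPM in *ap3b2* CRISPants, 8423 to 9245 CPM in *eef1a2* CRISPants and 8141 to 8818 CPM in controls, and none of them was at 0 in all 9 CRISPant libraries. In bulk tissue, fewer cells of a type and less RNA per cell cannot be told apart.

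No gene passed the test of a difference between *ap3b2* and *eef1a2* CRISPant brains. Of 26807 genes in the table, 20584 passed the filter on low counts and were tested with edgeR's quasi-likelihood test. None was called at a Benjamini-Hochberg adjusted p (FDR) below 0.05 and a fold change above 2 (0%), and none at an FDR below 0.05 without the fold-change threshold (0%). The smallest FDR was 0.999993. An unadjusted p below 0.05 was given to 179 genes (0.87%), 80 of them higher (0.389%) and 99 lower (0.481%) in *ap3b2* CRISPants, where a threshold of 5% nominally allows 1029. In the median gene 3.03% of the variance among the 9 libraries lay between the groups, and the rest within them. The p-values were thus not spread evenly, and an FDR near 1 does not show that the groups are equal. DESeq2 and limma-voom without quality weights also gave 0 genes at an FDR below 0.05, with 228 and 176 genes at an unadjusted p below 0.05. With quality weights limma-voom gave 901 (4.38%) at an unadjusted p below 0.05 and 0 at that FDR. The count of 179 depended on single libraries: it was 408 without *ap3b2* replicate 4, 327 without *eef1a2* replicate 2, 304 without *eef1a2* replicate 4, 118 without *ap3b2* replicate 1 and 97 without *ap3b2* replicate 2.

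The estimated differences were small. Log2 fold changes, given throughout as *ap3b2* over *eef1a2* CRISPants, had a median of 0.002 and quartiles of -0.06 and 0.06, and 95.5% of genes lay between -0.25 and 0.25. Estimates were above 0 for 10476 genes and below 0 for 10108. They ran from -0.99 to 1.17, and 26 genes were past 1.5-fold and 2 past 2-fold (0.00972%). The edits were fully apart, with no library of 1 group inside the range of the other, in 110 genes (0.534%), *ap3b2* CRISPants being higher in 47 (0.228%) and lower in 63 (0.306%).

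The genes targeted by the guides were described first. *ap3b2.S* (chromosome 1S, 173781321 to 173927757, assembly Xenopus_laevis_v10.1) had 61.9, 66.0, 65.5 and 79.7 CPM in *ap3b2* CRISPants, 75.9, 71.3, 66.4, 68.4 and 64.6 CPM in *eef1a2* CRISPants and 70.1 to 75.02 CPM in controls. The groups overlapped, with the highest and the lowest of the 9 libraries both in the *ap3b2* group. The log2 fold change was -0.02 (SE 0.08, 95% interval -0.20 to 0.16, unadjusted p = 0.803), and with replicates 1 to 3 of each group alone it was -0.14 (unadjusted p = 0.0725). Its homeolog *ap3b2.L* had 64.4, 72.1, 79.3 and 113 CPM in *ap3b2* CRISPants, 73.4, 94.0, 55.1, 107 and 80.1 CPM in *eef1a2* CRISPants and 117 to 133 CPM in controls. Every CRISPant library of either kind was below every control library for this homeolog, and the CRISPant groups overlapped, with a log2 fold change of 0.00 (SE 0.20, 95% interval -0.44 to 0.45). Against the same controls, *ap3b2.L* was at -0.57 in *ap3b2* CRISPants (FDR 0.0069) and at -0.58 in *eef1a2* CRISPants (FDR 0.012), which share those controls.

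*eef1a2.S* (chromosome 9_10S, 16774554 to 16789563) had 405, 418, 477 and 419.7 CPM in *ap3b2* CRISPants, 435, 382, 432, 397 and 368 CPM in *eef1a2* CRISPants and 372 to 444 CPM in controls. *eef1a2.L* (chromosome 9_10L, 17547318 to 17560489) had 152, 143, 163 and 152 CPM in *ap3b2* CRISPants, 158, 140.5, 173, 134 and 123 CPM in *eef1a2* CRISPants and 137 to 158 CPM in controls. For both homeologs the groups overlapped, and *eef1a2* replicate 5 was the lowest of the 9 libraries. The log2 fold change was 0.09 (SE 0.07, 95% interval -0.07 to 0.26) for *eef1a2.S* and 0.07 (SE 0.10, 95% interval -0.14 to 0.28) for *eef1a2.L*. An edit need not change the count of reads on its gene, so these values neither show nor exclude editing, and the sequence at the cut sites was not analysed here. The RNA level of the edited genes therefore does not tell the CRISPant groups apart.

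**Figure D1:**
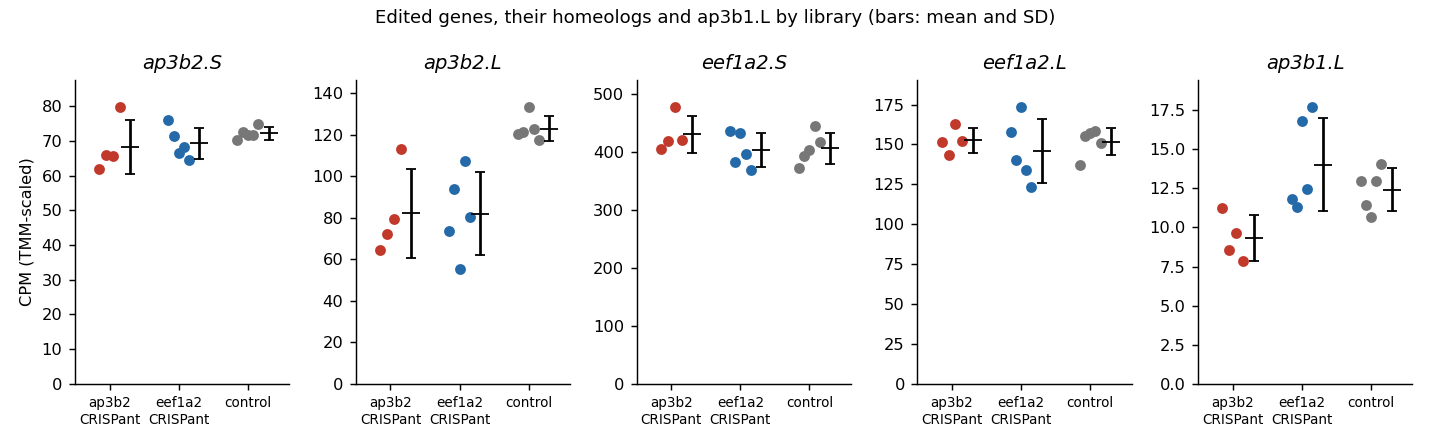
Level of *ap3b2.S*, *ap3b2.L*, *eef1a2.S*, *eef1a2.L* and *ap3b1.L* in CPM (TMM-scaled) for each library of the *ap3b2* CRISPant, *eef1a2* CRISPant and control groups, with the mean and SD as a bar beside the points. The CRISPant groups overlap for the edited genes and their homeologs, and the 4 *ap3b2* CRISPant libraries of *ap3b1.L* (7.85 to 11.2 CPM) lie below the 5 *eef1a2* CRISPant libraries (11.3 to 17.7 CPM).

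Among the other subunits of AP-3, the beta subunit that most tissues use stood out from the rest of the complex. *ap3b1.L* (chromosome 1L, 201953357 to 202096895) had 11.2, 8.54, 9.65 and 7.85 CPM in *ap3b2* CRISPants, 11.8, 11.3, 16.8, 12.49 and 17.7 CPM in *eef1a2* CRISPants and 10.7 to 14.1 CPM in controls. The CRISPant groups did not overlap, although the highest *ap3b2* library, at 11.2 CPM, was next to the lowest *eef1a2* library, at 11.3 CPM. The log2 fold change was -0.59 (SE 0.17, 95% interval -0.96 to -0.22, unadjusted p = 0.00542), which did not pass adjustment over all genes in edgeR (FDR 0.999993). A gene measured with this error would have needed a 2.89-fold difference to pass. In the 24 alternative analyses the estimate ran from -0.69 to -0.44 and the unadjusted p was below 0.05 in each, with no FDR below 0.951. This was not particular to *ap3b1.L*: other genes of low p, *tgm1.L* and *chd7.S* among them, also had an unadjusted p below 0.05 in all 24. The alternatives refit the same libraries and give no independent support. *ap3b1.L* is also among the 10 genes of lowest p in its direction, and no *ap3b1.S* was tested. Against the shared controls it was at -0.41 in *ap3b2* CRISPants (FDR 0.022 in edgeR) and at 0.17 in *eef1a2* CRISPants (FDR 0.35). Passing in 1 edit alone is not a test between the edits. Part of the gap came from *eef1a2* replicates 3 and 5, which at 16.8 and 17.7 CPM lay above every control.

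The remaining 9 AP-3 genes that were tested, both *ap3b2* homeologs included, had estimates near 0. The large delta subunit that pairs with the beta subunit was at -0.03 (*ap3d1.L*, SE 0.05) and -0.01 (*ap3d1.S*, SE 0.06). The neuronal mu subunit, which binds the sorting signal of cargo, was at 0.03 (*ap3m2.L*, SE 0.08) and 0.09 (*ap3m2.S*, SE 0.12). The small sigma subunits were at 0.00 (*ap3s1.L*, SE 0.07), 0.03 (*ap3s1.S*, SE 0.07) and 0.11 (*ap3s2.S*, SE 0.14). All 10 AP-3 genes had 95% intervals within 2-fold, beside 97.3% of all genes. Of the 10, 1 had an unadjusted p below 0.05, beside 0.481% of all genes in that direction.

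The elongation factors, the family of the other edited gene, held no gene at an unadjusted p below 0.05. With 0.87% of all genes below that threshold, 0 of 34 is near the share of all genes. Of 34 genes tested, 16 estimates were above and 18 below 0, and the median was -0.01. All 34 intervals lay within 2-fold, beside 97.3% of all genes. The general form of the factor that *eef1a2* replaces was near 0 in both homeologs, at -0.04 for *eef1a1.L* (SE 0.08) and -0.06 for *eef1a1.S* (SE 0.08), with 95% intervals that reached no further than 1.16-fold and 1.17-fold. The lowest estimate was -0.25 for *eef1akmt2.S* (SE 0.18), a lysine methyltransferase that modifies eEF1A in human cells. The highest was 0.17 for *dph1.L* (SE 0.11), an enzyme of the diphthamide modification of elongation factor 2.

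Principal components, which do not use the group labels, did not separate the edits either. The first component of the 21328 genes in the authors' log2 CPM table took 40.5% of the variance. *ap3b2* CRISPants scored 104, 42.0, 12.95 and -139 on it and *eef1a2* CRISPants 26.2, -106, 136, -81.9 and 5.53. Each group spanned nearly the whole component, and the difference of the means was 8.97 (*ap3b2* 4.99, SD 103, and *eef1a2* -3.99, SD 96.5), with p = 0.913 in a two-sided exact permutation test over all arrangements of 4 and 5 libraries. The second component (20.1% of the variance) gave p = 0.905 and the third (9.56%) p = 0.341 in the same exact test, whose smallest possible p is 0.00794. The sign of the difference on the first component changed with the genes and libraries used, as given under the processing alternatives.

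**Figure D2:**
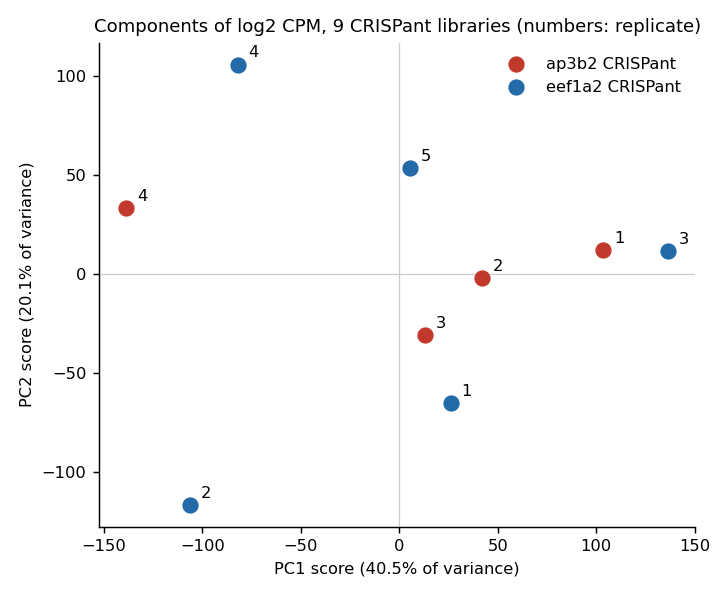
Scores of the 4 *ap3b2* and 5 *eef1a2* CRISPant libraries on the first component (40.5% of variance) and the second (20.1%), from log2 CPM with each gene scaled, the numbers being replicates. Libraries of both groups lie at both ends of the first component, from -139 (*ap3b2* replicate 4) to 136 (*eef1a2* replicate 3).

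The libraries that lie apart did so within groups. *ap3b2* replicate 4, *eef1a2* replicate 2 and *eef1a2* replicate 4 had the lowest scores on the first component. They also had the lowest sums over 147 cytosolic ribosomal protein genes, at 83559, 87598 and 94323 CPM, against 109445 to 131238 CPM in the other 6 CRISPant libraries and 68669 to 85765 CPM in controls. Genes of long span were relatively higher in *ap3b2* replicate 4 and *eef1a2* replicate 2, by 0.13 and 0.24 on the log2 scale for the longest over the shortest quintile of genes by span. This measure of span averaged -0.02 in *ap3b2* CRISPants and 0.02 in *eef1a2* CRISPants (exact permutation p = 0.651, two-sided). The part of these differences between libraries in the absence of called genes was not tested.

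The size of difference that could have been missed was bounded gene by gene. The 95% confidence interval of the log2 fold change lay within 2-fold in both directions for 20033 genes (97.3%), and within 1.5-fold for 16332 (79.3%). With 99% intervals 18558 genes (90.2%) were within 2-fold. With intervals widened to hold for all genes at once, 7354 (35.7%) were. The far end of the interval was 1.27-fold from equality in the median gene, 1.85-fold at the 95th percentile and 6.45-fold at most. For most brain genes these libraries thus leave room for differences under 2-fold and not over it, each taken singly.

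The bound depended on level. Genes were divided into quintiles by their mean over the 9 libraries, with limits at 5.09, 12.43, 25.4 and 55.1 CPM. From the lowest to the highest quintile, 90.1%, 97.7%, 99.03%, 99.8% and 99.9% of genes had an interval within 2-fold, and the median far end was 1.56-fold, 1.35-fold, 1.255-fold, 1.19-fold and 1.16-fold. The difference a gene would have needed to pass the adjusted test on its own was larger, at 4.17-fold, 2.67-fold, 2.10-fold, 1.77-fold and 1.63-fold in the median gene of each quintile. Over all genes this needed difference was 2.24-fold, and it was under 2-fold for 8213 genes (39.9%). From the lowest to the highest quintile, the needed difference was under 2-fold for 0%, 9.47%, 42.4%, 69.4% and 78.2% of genes. A 2-fold difference could therefore have gone uncalled in any gene of the lowest quintile and in some genes of every other. The interval rather than the absence of a call sets the limit.

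**Figure D3:**
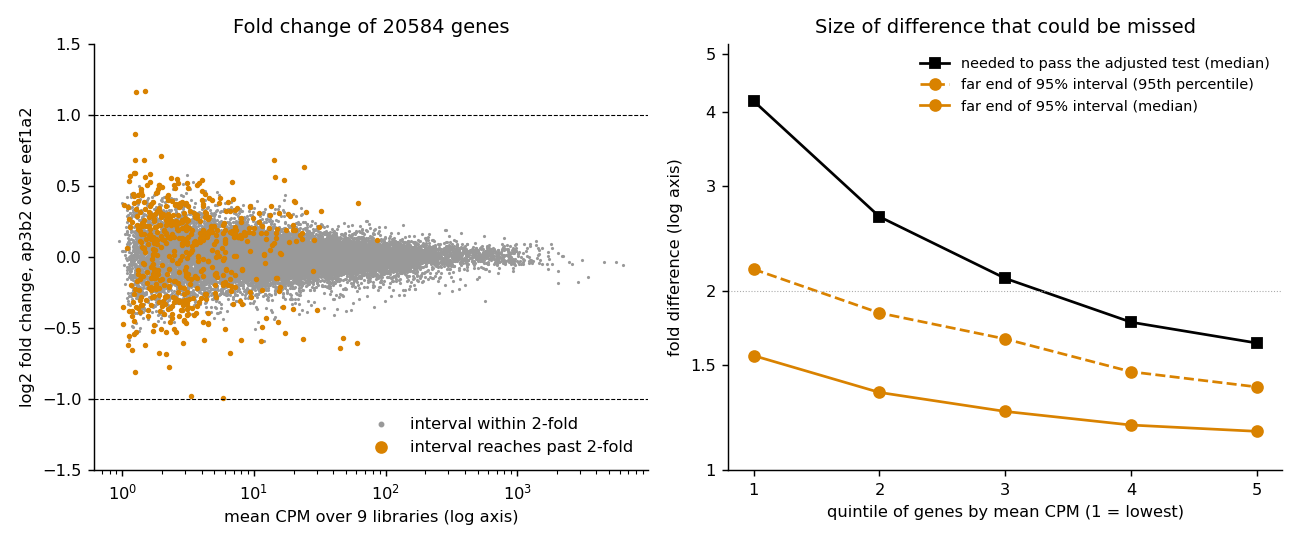
Left, log2 fold change (*ap3b2* over *eef1a2* CRISPants) of each of the 20584 genes against its mean CPM over 9 libraries on a log axis, with the 551 genes whose 95% interval reaches past 2-fold in orange and dashed lines at 2-fold. Right, for each quintile of genes by mean CPM, the fold difference needed to pass the adjusted test (median, squares) and the far end of the 95% interval (median and 95th percentile, circles) on a log axis: the needed difference is 4.17-fold in the lowest quintile and 1.63-fold in the highest.

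The 551 genes (2.68%) not held within 2-fold were mostly of low level: 404 were below 5 CPM and 3 were at 50 CPM or above. Their median was 2.84 CPM, and 80 were in a list described below, for which the share of all genes was not computed. In 19 the interval did not include 0, where 0.87% of all genes had an unadjusted p below 0.05. A large estimate, as well as a wide interval, favours a place among the 551. The 19 are therefore not like for like with all genes. The 3 of higher level were *egr1.L*, *islr2.L* and *ntn1.L*. *ntn1.L*, a netrin that guides axons, had 69.9, 83.6, 77.0 and 56.2 CPM in *ap3b2* CRISPants, 76.6, 101, 33.7, 26.6 and 36.5 CPM in *eef1a2* CRISPants and 72.0 to 115 CPM in controls. Its *eef1a2* libraries fell into a higher pair and a lower 3, and the log2 fold change was 0.38 (SE 0.36, 95% interval -0.41 to 1.18). *islr2.L*, a leucine-rich repeat membrane protein of growing axons, had 62.9, 86.8, 67.4 and 145.0 CPM in *ap3b2* CRISPants, 66.2, 146, 25.6, 103 and 74.3 CPM in *eef1a2* CRISPants and 171 to 278 CPM in controls. All 9 CRISPant libraries were below the controls, and those of the edits overlapped, with a log2 fold change of 0.12 (SE 0.42, 95% interval -0.80 to 1.04).

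Particular libraries recurred as the extremes of these genes. The 551 genes were chosen for wide intervals, which spread within a group widens, so libraries that lie apart are favoured as their extremes. The shares of all genes given beside them are therefore not like for like. Among the 551 genes, *eef1a2* replicate 3 was the lowest of the 9 libraries in 313 (56.8%, against 20.3% of all genes), *eef1a2* replicate 2 the highest in 215 (39.0%, against 17.5%) and *ap3b2* replicate 4 the highest in 172 (31.2%, against 13.9%). In 43 of them (7.80%) the 5 libraries with replicate numbers 4 and 5 of all 3 groups lay entirely above or below the 9 with numbers 1 to 3, as 503 of all genes did (2.44%). *pcnt.L*, a centrosome scaffold, was chosen as an example after its values were seen. It had 23.2, 15.5, 21.7 and 75.8 CPM in *ap3b2* CRISPants, 22.9, 24.6, 15.2, 94.1 and 110.0 CPM in *eef1a2* CRISPants and 15.8, 13.97, 14.01, 29.9 and 70.9 CPM in controls. The high libraries were replicate 4 of each group and replicate 5 of the *eef1a2* and control groups. The *ap3b2* group has no replicate 5, so replicate numbers were not balanced between the edits. The interval of *pcnt.L* ran from -2.09 to 0.80 around a log2 fold change of -0.64.

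The genes of lowest p were examined even though none passed adjustment. Those higher in *ap3b2* CRISPants were led by *tgm1.L*, a transglutaminase that cross-links proteins of the epidermal barrier. It had 3.98, 3.93, 4.23 and 4.57 CPM in *ap3b2* CRISPants, 2.94, 2.30, 3.15, 2.79 and 3.31 CPM in *eef1a2* CRISPants and 3.44 to 5.76 CPM in controls (log2 fold change 0.53, SE 0.15, unadjusted p = 0.00406). The CRISPant groups did not overlap, and the *ap3b2* libraries were within the range of the controls. *ap1s2.L*, a sigma subunit of the related adaptor complex AP-1, had 92.8, 87.1, 81.1 and 84.3 CPM in *ap3b2* CRISPants, 75.9, 79.1, 78.9, 75.3 and 74.1 CPM in *eef1a2* CRISPants and 81.4 to 94.5 CPM in controls (log2 fold change 0.17, SE 0.05, unadjusted p = 0.00984). Here too the groups did not overlap and the *eef1a2* libraries were the ones below the controls. *stau1.L*, a double-stranded RNA binding protein of mRNA transport, had 163, 155, 161 and 162 CPM in *ap3b2* CRISPants, 148, 139, 155, 139 and 142 CPM in *eef1a2* CRISPants and 135 to 149 CPM in controls (log2 fold change 0.15, SE 0.05).

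The other genes of lowest p higher in *ap3b2* CRISPants had estimates of 0.43 to 0.59, and none passed adjustment. *ncaph.S*, a condensin subunit, was at 0.52 (SE 0.17), *cdca7.L*, a cell cycle gene, at 0.43 (SE 0.15), and *ube2t.S*, a ubiquitin-conjugating enzyme of DNA repair, at 0.45 (SE 0.17). *cdca7.L* had 24.5, 21.9, 18.07 and 15.5 CPM in *ap3b2* CRISPants, 15.4, 11.5, 16.4, 17.0 and 13.8 CPM in *eef1a2* CRISPants and 11.9 to 17.2 CPM in controls, so that the groups overlapped through *ap3b2* replicate 4. *ptf1a.L*, a transcription factor known in mouse from inhibitory neurons of the cerebellum, was at 0.50 (SE 0.17). *dao.L*, D-amino acid oxidase, was at 0.43 (SE 0.14), *cdc42ep1.L*, an effector of the small GTPase Cdc42, at 0.48 (SE 0.15), *ifitm5.L* at 0.58 (SE 0.19) and *col9a3.S*, a cartilage collagen chain, at 0.59 (SE 0.20). Of these, *ncaph.S*, *cdca7.L* and *col9a3.S* overlapped between the groups.

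The genes lower in *ap3b2* CRISPants did not pass adjustment either. *chd7.S*, a nucleosome remodeller, had 73.4, 76.3, 74.4 and 75.5 CPM in *ap3b2* CRISPants, 87.3, 88.9, 80.4, 92.7 and 81.5 CPM in *eef1a2* CRISPants and 73.6 to 96.4 CPM in controls (log2 fold change -0.20, SE 0.06, unadjusted p = 0.0048). *phip.L*, a bromodomain protein, had 57.0, 57.4, 58.4 and 56.7 CPM in *ap3b2* CRISPants, 68.6, 71.5, 62.2, 61.2 and 65.6 CPM in *eef1a2* CRISPants and 57.6 to 70.9 CPM in controls (log2 fold change -0.20, SE 0.06, unadjusted p = 0.00779). In both genes the *ap3b2* libraries were close together and did not overlap the *eef1a2* libraries, and control replicate 4 was down beside them. Their 95% intervals ended at 1.26-fold, so that a difference larger than that lies outside the interval.

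The others lower in *ap3b2* CRISPants had no role in common that was tested. *dennd1b.S*, an exchange factor for endosomal Rab GTPases, had 1.28, 1.58, 1.64 and 1.96 CPM in *ap3b2* CRISPants, 3.21, 3.53, 1.89, 2.25 and 2.98 CPM in *eef1a2* CRISPants and 1.90 to 4.33 CPM in controls (log2 fold change -0.78, SE 0.22, unadjusted p = 0.00552), and the groups overlapped by 1 library on each side. *csmd1.S*, a membrane protein that inhibits complement, had 9.64, 10.9, 11.5 and 10.9 CPM in *ap3b2* CRISPants, 14.5, 16.4, 12.7, 12.51 and 12.57 CPM in *eef1a2* CRISPants and 13.3 to 19.9 CPM in controls, without overlap of the CRISPant groups (log2 fold change -0.36, SE 0.11). *cd40.S*, a receptor of the tumour necrosis factor family, was at -0.44 (SE 0.13), *colec11.L*, a collectin of innate immunity, at -0.58 (SE 0.18), *sds.L*, serine dehydratase, at -0.41 (SE 0.13) and *frmd7.S*, a FERM domain protein of neurite growth, at -0.65 (SE 0.21). *ptpn13.L*, a tyrosine phosphatase, was at -0.22 (SE 0.07), *szl.L*, a secreted inhibitor of tolloid proteases in *Xenopus*, at -0.50 (SE 0.18) and *tns4.L*, a tensin, at -0.49 (SE 0.16). The estimate of *sds.L* was -0.56 without *ap3b2* replicate 4 and that of *frmd7.S* was -0.93 with replicates 1 to 3 alone.

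**Figure D4:**
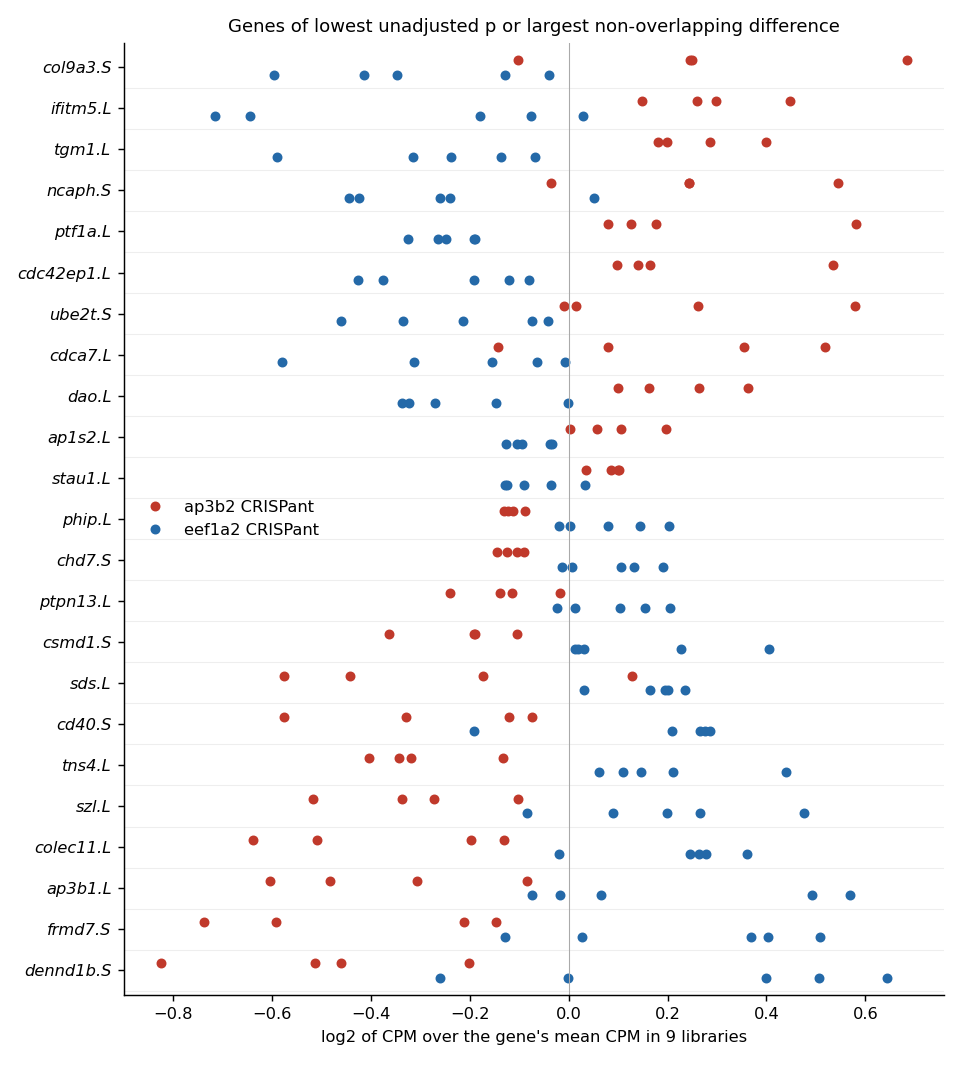
Level of the 23 genes of lowest unadjusted p or largest difference without overlap, as log2 of CPM over the gene's mean CPM in 9 libraries, for each *ap3b2* (red) and *eef1a2* (blue) CRISPant library. The genes were chosen for this separation; *chd7.S* and *phip.L* have 4 *ap3b2* libraries close together below the *eef1a2* libraries.

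The second homeolog of a gene did not enter its choice, but it is not an independent measure. Of the 23 genes chosen by p or by difference, 13 had a tested homeolog. It had an estimate in the same direction in 11 (84.6%, beside 62.2% of all 7530 pairs of homeologs tested) and in the opposite direction in 2 (*cdc42ep1.S* at -0.05 and *frmd7.L* at 0.15). In 1 of the 13, *cdca7.S*, the unadjusted p was below 0.05 (0.0312), with a log2 fold change of 0.34 (SE 0.14), which is 7.69% beside 0.87% of all genes, and in none were the groups apart, beside 0.534% of all genes. *cdca7.S* had 19.99, 17.5, 14.2 and 14.2 CPM in *ap3b2* CRISPants, 13.7, 10.7, 12.53, 15.6 and 12.59 CPM in *eef1a2* CRISPants and 10.97 to 16.6 CPM in controls. Homeologs are measured in the same libraries, and near-identical copies can share reads. The 23 genes were picked for their separation and the 7530 pairs were not, so these shares are not like for like. They give the chosen genes no independent support. *chd7.L* was at -0.14 (SE 0.08) and *phip.S* at -0.09 (SE 0.09).

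The estimates past 2-fold belonged to 2 genes of about 1 CPM, and the lowest estimate to another gene of low level. *LOC100494984.L* had 1.48, 4.90, 1.17 and 1.08 CPM in *ap3b2* CRISPants and 1.14, 1.18, 0.904, 0.760 and 0.809 CPM in *eef1a2* CRISPants (log2 fold change 1.17, SE 0.44). It rested on *ap3b2* replicate 2, without which it was 0.37. *dtx3l.L*, a ubiquitin ligase, had 1.53, 2.21, 2.31 and 1.24 CPM in *ap3b2* CRISPants and 1.35, 1.39, 0.568, 0.557 and 0.190 CPM in *eef1a2* CRISPants (log2 fold change 1.16, SE 0.46). In both genes the groups overlapped, and differences of 16.6-fold and 18.7-fold would have been needed to pass the adjusted test. *otop3.S*, a proton channel, had 4.18, 3.43, 1.59 and 5.74 CPM in *ap3b2* CRISPants and 7.60, 4.35, 5.89, 8.84 and 10.6 CPM in *eef1a2* CRISPants (log2 fold change -0.99, SE 0.34), also with overlap. These 3 are shown because of their values and were chosen with those in view.

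Vesicle traffic, the process in which AP-3 works, was compared by lists. Of 31 genes of the other adaptor complexes, *ap1s2.L* alone had an unadjusted p below 0.05 (3.23%, beside 0.87% of all genes), and the median was 0.03. The lysosome-related organelle complexes BLOC-1, BLOC-2 and BLOC-3 (17 genes, median -0.02) and the endosome tethers HOPS and CORVET (14 genes, median 0.00) had none. All genes of these 3 lists had intervals within 2-fold, beside 97.3% of all genes, with none reaching past 1.85-fold. Among 27 AP-3 cargoes and partners none had an unadjusted p below 0.05, and 26 were held within 2-fold. The exception, *arf1.S*, a small GTPase that recruits AP-3 to membranes, had 13.1, 17.7, 16.4 and 23.1 CPM in *ap3b2* CRISPants, 8.05, 21.7, 4.98, 12.61 and 11.9 CPM in *eef1a2* CRISPants and 19.4 to 34.3 CPM in controls (log2 fold change 0.56, SE 0.35). Of 90 genes of synaptic vesicles and release, 83 were held within 2-fold and 1 had an unadjusted p below 0.05 (1.11%, near the 0.87% of all genes). This was *pclo.S*, a scaffold of the presynaptic active zone, with 81.1, 94.8, 90.3 and 85.4 CPM in *ap3b2* CRISPants, 114, 142, 93.4, 93.2 and 103 CPM in *eef1a2* CRISPants and 76.9 to 168 CPM in controls (log2 fold change -0.31, SE 0.12). The largest estimate of that list was 0.40 for *syt2.L*, a calcium sensor of release (SE 0.45), and it was 0.89 without *eef1a2* replicate 2 and -0.16 with replicates 1 to 3 alone.

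RNA levels of genes of translation, the process in which eEF1A works, were held within 2-fold in each of its 5 lists. The share was 97.3% of all genes and 99.9% of the highest quintile by level, so this is not particular to translation. Protein synthesis itself was not measured. None of 146 cytosolic ribosomal protein genes and none of 78 initiation factor genes had an unadjusted p below 0.05, beside 0.87% of all genes. All genes of these lists had an interval within 2-fold. Ribosomal protein genes ran from -0.20 (*rps19.L*) to 0.09 (*rpl39.S*) and initiation factors from -0.27 (*eif2a.L*) to 0.21 (*eif4e3.S*), with 26 initiation factors above 0 and 52 below it and a median of -0.02. Of 38 aminoacyl-tRNA synthetase genes, *farsb.S*, a subunit of the phenylalanine enzyme, had an unadjusted p below 0.05 (log2 fold change 0.31, SE 0.13). Of 38 genes of the integrated stress response, *shmt2.L*, a mitochondrial enzyme of one-carbon metabolism, did so (log2 fold change 0.16, SE 0.07). *shmt2.L* had 32.8, 32.7, 32.5 and 32.9 CPM in *ap3b2* CRISPants, 26.6, 29.0, 28.8, 30.8 and 31.6 CPM in *eef1a2* CRISPants and 29.0 to 35.3 CPM in controls, without overlap of the CRISPant groups. All genes of both lists were held within 2-fold, and 1 gene in 38 at an unadjusted p below 0.05 is 2.63%, beside 0.87% of all genes. Among 27 p53 targets none had an unadjusted p below 0.05, and 26 were held within 2-fold.

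Genes of neuronal signalling were held within 2-fold in smaller shares than the 97.3% of all genes. None of 19 GABA-A receptor subunit genes, 16 genes of GABA synthesis and transport, 46 glutamate receptor genes, 130 potassium channel genes and 130 axon guidance genes had an unadjusted p below 0.05. The share of all genes was 0.87%, at which few or none are expected in lists of these sizes. Of the genes in these lists 17, 14, 44, 120 and 124 were held within 2-fold. *gad2.L*, which makes GABA, had 66.3, 84.0, 83.8 and 115 CPM in *ap3b2* CRISPants, 69.4, 146, 30.2, 62.6 and 73.5 CPM in *eef1a2* CRISPants and 121 to 231 CPM in controls. The highest and the lowest CRISPant libraries were both of the *eef1a2* group, and the log2 fold change of 0.19 (SE 0.35, 95% interval -0.59 to 0.98) became 0.57 without *eef1a2* replicate 2. *gabra2.L*, a GABA-A receptor subunit, had 8.77, 12.7, 10.4 and 21.0 CPM in *ap3b2* CRISPants, 9.14, 22.1, 5.19, 10.08 and 12.3 CPM in *eef1a2* CRISPants and 25.8 to 40.3 CPM in controls, with an interval of -0.67 to 1.01.

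Among 64 voltage-gated sodium and calcium channel genes, *scn1a.S*, a sodium channel of inhibitory neurons in mouse, was the 1 with an unadjusted p below 0.05 (1.56%, beside 0.87% of all genes, log2 fold change -0.21, SE 0.09). It had 73.9, 73.0, 74.5 and 75.4 CPM in *ap3b2* CRISPants, 96.9, 99.4, 76.4, 75.2 and 80.8 CPM in *eef1a2* CRISPants and 68.7 to 109 CPM in controls, and *ap3b2* replicate 4 overlapped *eef1a2* replicate 4. Its homeolog *scn1a.L* was at -0.33 (SE 0.18). The largest fall among potassium channels was estimated for *kcnab1.L*, a channel subunit, at -0.62 (SE 0.40), which was -0.21 without *eef1a2* replicate 2. The largest rise was estimated for *kcnc1.S* at 0.32 (SE 0.18). Of 132 genes known from developmental and epileptic encephalopathies, 128 were held within 2-fold and *scn1a.S* was the 1 with an unadjusted p below 0.05 (0.758%).

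Immediate early genes, which neurons switch on when active, were estimated lower in *ap3b2* CRISPants in 32 of 37 members, beside 10108 of all 20584 genes. Their median was -0.12, beside 0.002 for all genes. Such genes respond together, so the members are not separate observations. Of them 2 had an unadjusted p below 0.05 (5.41%, beside 0.481% of all genes in that direction), and 31 were held within 2-fold. *egr1.L* had 42.2, 53.4, 36.59 and 55.9 CPM in *ap3b2* CRISPants, 43.9, 62.1, 73.4, 63.8 and 115 CPM in *eef1a2* CRISPants and 60.4 to 178 CPM in controls (log2 fold change -0.61, SE 0.24, 95% interval -1.13 to -0.08). *egr4.L* was at -0.58 (SE 0.37), with a 95% interval of -1.40 to 0.24 that included 0. *npas4.L*, an activity-dependent transcription factor chosen after its values were seen, had 13.6, 19.9, 15.3 and 19.5 CPM in *ap3b2* CRISPants, 20.1, 23.1, 23.5, 18.6 and 21.9 CPM in *eef1a2* CRISPants and 21.7 to 56.2 CPM in controls (log2 fold change -0.33, SE 0.13). In each of these genes the CRISPant groups overlapped, and the estimate of *egr1.L* was -0.36 with a replicate block (unadjusted p = 0.0520). Summed over 41 genes, the list came to 770.2 to 939.7 CPM in *ap3b2* CRISPants, 888 to 1164 CPM in *eef1a2* CRISPants and 835 to 1465 CPM in controls. The sum of 1164 CPM was *eef1a2* replicate 5, and the other *eef1a2* libraries lay at 888 to 974 CPM.

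**Figure D5:**
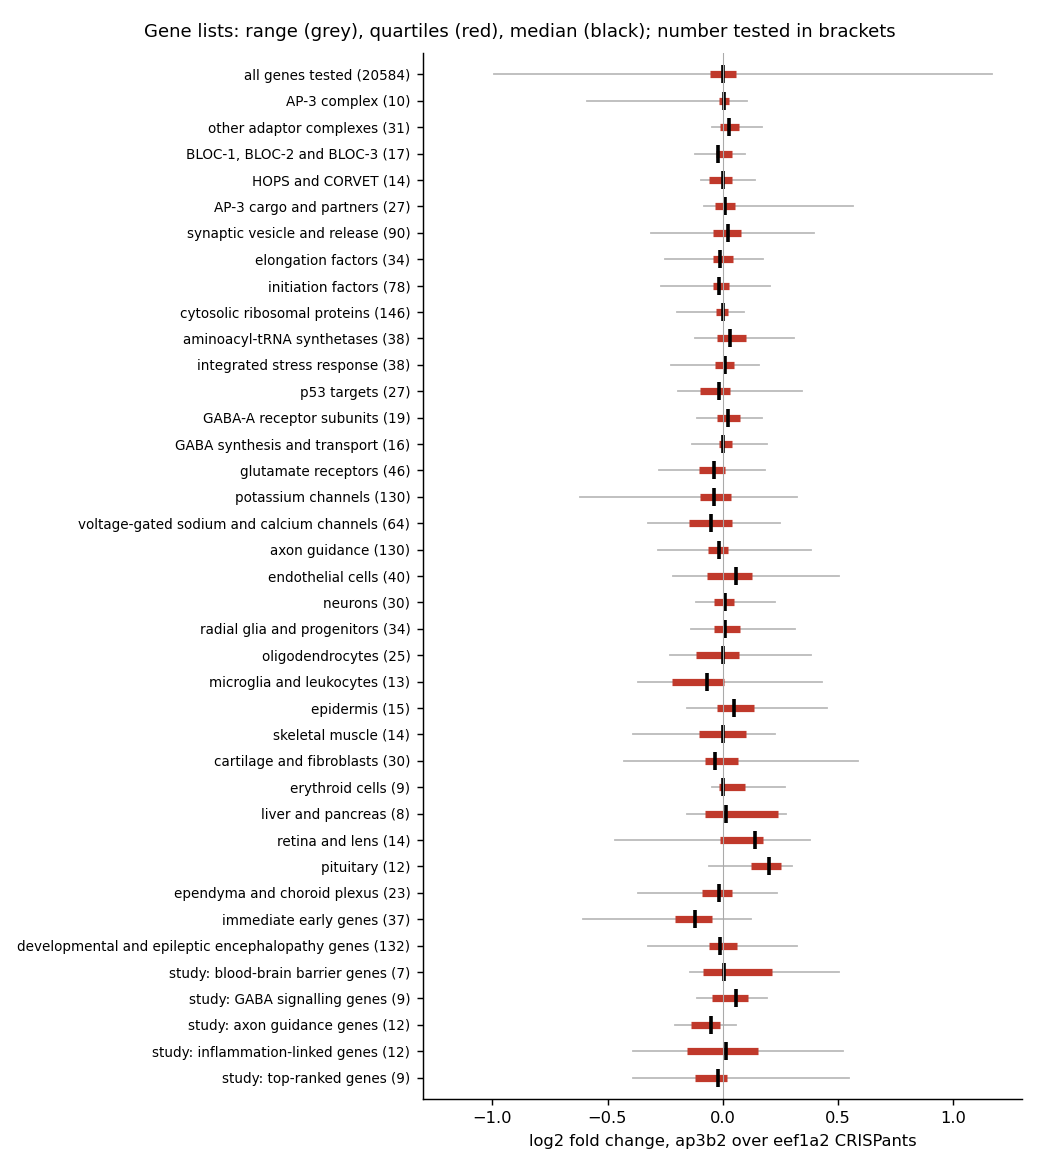
Log2 fold change (*ap3b2* over *eef1a2* CRISPants) of all 20584 genes and of each gene list, as the range (grey line), the quartiles (red bar) and the median (black tick), with the number of genes tested in brackets. The medians lie between -0.12 (immediate early genes) and 0.20 (pituitary genes), with retina and lens genes at 0.14.

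Summed markers of the cell types given here overlapped between the groups. Radial glia and progenitor genes summed to 3328 to 3523 CPM in *ap3b2* CRISPants and 3092 to 3583 CPM in *eef1a2* CRISPants, and oligodendrocyte genes to 539 to 734 CPM in *ap3b2* CRISPants and 611 to 762 CPM in *eef1a2* CRISPants. Of 34 radial glia genes, *mcm2.L*, a DNA replication helicase subunit, was the 1 with an unadjusted p below 0.05 (2.94%, beside 0.87% of all genes, log2 fold change 0.32, SE 0.13). Pituitary genes had the highest median of all lists, 0.20 over 12 genes, and none had an unadjusted p below 0.05. The pituitary sum was 197, 218, 223 and 82.9 CPM in *ap3b2* CRISPants and 205, 165, 191, 108 and 141 CPM in *eef1a2* CRISPants, so that the groups overlapped and the lowest library was *ap3b2* replicate 4. Blood genes ranged from 1051 to 1494 CPM in *ap3b2* CRISPants and from 751 to 1670 CPM in *eef1a2* CRISPants. Of 13 microglia and leukocyte genes, *tyrobp.L* was at 0.43 (SE 0.18, unadjusted p = 0.0380) and its homeolog *tyrobp.S* at -0.37 (SE 0.20).

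Of 40 endothelial genes, none had an unadjusted p below 0.05, beside 0.87% of all genes, and 34 were held within 2-fold. *kdrl.L*, a receptor for vascular endothelial growth factor, had 1.53, 1.90, 1.89 and 6.58 CPM in *ap3b2* CRISPants, 1.78, 2.40, 0.826, 4.28 and 1.24 CPM in *eef1a2* CRISPants and 8.03 to 11.7 CPM in controls. *jcad.S*, an endothelial junction gene, had 0.765, 1.00, 1.196 and 4.28 CPM in *ap3b2* CRISPants, 1.43, 2.94, 0.955, 2.79 and 1.57 CPM in *eef1a2* CRISPants and 5.103 to 9.17 CPM in controls. In both genes *ap3b2* replicate 4 was far above the other *ap3b2* libraries. The log2 fold change of *kdrl.L* was 0.50 (SE 0.54) and became -0.25 without that library, and that of *jcad.S* was -0.09 (SE 0.52) and became -0.98 (unadjusted p = 0.0309). For these genes the comparison of the edits turned on 1 pool of brains.

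Genes called against controls in 1 edit alone were then read in the direct comparison. Against the 5 controls, which both edits share, 1063 genes were lower (5.11%) and 16 higher (0.0769%) in *ap3b2* CRISPants, of 20800 tested, and 1083 were lower (5.24%) and 18 higher (0.087%) in *eef1a2* CRISPants, of 20682 tested. Among the genes tested directly, 138 were called in *ap3b2* CRISPants alone and 207 in *eef1a2* CRISPants alone. Of the 138, none reached an FDR below 0.05 in the direct comparison, and 3 had an unadjusted p below 0.05 (2.17%, beside 0.87% of all genes). Their median log2 fold change was -0.18, and 105 were held within 2-fold (76.1%, beside 97.3% of all genes). Of the 207, none reached an FDR below 0.05, and 2 had an unadjusted p below 0.05 (0.966%, near the 0.87% of all genes). Their median was 0.16, and 159 were held within 2-fold (76.8%, beside 97.3% of all genes). Choosing genes by a threshold passed in 1 group uses these same libraries and sets the sign of those medians. Of 812 genes called in both, none had an unadjusted p below 0.05, beside 0.87% of all genes, and the median was 0.02. They were less well bounded, with 551 held within 2-fold (67.9%, beside 97.3% of all genes). Genes called in both were chosen on these same libraries and shared controls, which favours like values in the edits. Their small differences are therefore no test that the edits agree.

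Genes that stood highest against controls were among the less well bounded. Of 9 genes that the study ranked first in its comparison of *ap3b2* CRISPants with controls, and so chose on these libraries, 2 were held within 2-fold here. *ikbke.S*, a kinase of innate immune signalling, had 24.1, 20.8, 21.7 and 12.61 CPM in *ap3b2* CRISPants, 19.4, 15.4, 25.9, 16.6 and 20.6 CPM in *eef1a2* CRISPants and 8.23 to 10.4 CPM in controls. Both CRISPant groups were above the controls, and the difference between them was 0.02 (SE 0.20, 95% interval -0.42 to 0.45). *cfi.L*, a protease that degrades complement, had 6.22, 4.01, 3.61 and 4.23 CPM in *ap3b2* CRISPants, 6.57, 5.31, 8.55, 4.26 and 4.97 CPM in *eef1a2* CRISPants and 1.52 to 3.46 CPM in controls, and the CRISPant groups differed by -0.39 (SE 0.23). *mpc2.L*, a subunit of the mitochondrial pyruvate carrier, had 4.31, 4.56, 3.00 and 0.694 CPM in *ap3b2* CRISPants, 2.99, 2.84, 2.69, 1.09 and 1.119 CPM in *eef1a2* CRISPants and 0.633 to 1.76 CPM in controls, with an interval of -0.55 to 1.65.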

How the data were processed

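RNA of whole brains was sequenced as stranded mRNA libraries with paired 100 bp reads. The authors aligned trimmed reads to *X. laevis* v10.1 with STAR and deposited raw counts of read pairs per gene from featureCounts for 26807 genes, and log2 CPM values from edgeR for 21328 genes. Versions of these tools are not given in the sources used here. Groups and replicate numbers came from the labels.

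The deposited counts of the 9 CRISPant libraries were fitted alone, using edgeR 4.0.16 under R 4.3.3. A filter removed 6223 genes, those at or below 1 CPM in at least 4 libraries. Normalization was by TMM, and glmQLFit and glmQLFTest gave the quasi-likelihood test of *ap3b2* over *eef1a2*, with group as the sole term and Benjamini-Hochberg adjustment over 20584 genes. Standard errors and 95% intervals used the moderated dispersion on 10.6 degrees of freedom. The needed difference is the one that passes the first Benjamini-Hochberg rank at that standard error. The wider intervals that hold for all genes use the same rank. The fit was also run on simulated counts drawn independently for each library. Those counts lack the differences between libraries that many genes share on the first component. That run therefore does not vouch for the intervals given here.

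Depth was 36563581 to 46745977 read pairs a library. The SD between libraries covers counting error and differences between pools. Alternatives were DESeq2 1.42.0, limma-voom (limma 3.58.1), other scalings, filters, tests and terms, and leaving out each library. Components used the authors' log2 CPM, each gene scaled.

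Genes were named by rule: the edited genes, AP-3 and elongation factor genes, the 10 lowest p in each direction, the 5 largest differences in each direction without overlap and with at least 10 counts in each library of the higher group, the 2 largest rises and falls of each list, and genes the study names. Others are said to be chosen after their values were seen: *npas4.L*, *scn1a.S*, *tyrobp.S*, *islr2.L*, *irf5.L* and *ccdc39.L* belong to these. The members and lists were chosen with earlier results of these data known. Positions came from a RefSeq gene table of Xenopus_laevis_v10.1, which matched 17266 of the tested genes. Sequences were not used here. A gene among those the study names is not reported here.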

Additional observations from a re-analysis of the deposited data

Results flagged for a closer look

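In 10 of 194 checks of a group of libraries, over 78 genes, 15 marker sums and 4 other measures, a library lay far from the rest of its group. The cut-off nominally flags about 5% of checks of independent, normally spread values. Some of these genes were chosen with their values in view, and all checks share the same libraries. That share therefore gives no expected count here. In *ap3b2* CRISPants, *cdc42ep1.L* was 4.74 CPM in replicate 1 (3.51 to 3.67 CPM in the others) and *LOC100494984.L* was 4.90 CPM in replicate 2 (1.08 to 1.48 CPM). Replicate 4 of *ap3b2* was apart in 4 genes: *ptf1a.L* at 1.99 CPM (1.40 to 1.502 CPM in the others), *pcnt.L* at 75.8 CPM (15.5 to 23.2 CPM), *kdrl.L* at 6.58 CPM (1.53 to 1.90 CPM) and *jcad.S* at 4.28 CPM (0.765 to 1.196 CPM). In *eef1a2* CRISPants, replicate 2 was apart in 2 genes: *cd40.S* at 12.53 CPM (16.5 to 17.4 CPM in the others) and *kcnc1.S* at 11.8 CPM (7.22 to 7.80 CPM). On the third principal component, *ap3b2* replicate 3 scored 63.9 (-55.8 to -38.5 in the other *ap3b2* libraries) and *eef1a2* replicate 5 scored 74.6 (-3.24 to 4.58 in the other *eef1a2* libraries).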

How the results depend on the processing

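No gene was called, at an FDR below 0.05 with or without the 2-fold threshold, in any of 24 alternatives, and none with an FDR below 0.10 or a 1.5-fold threshold. The smallest FDR was 0.951 (limma-voom with quality weights, which gave 901 genes at an unadjusted p below 0.05, 4.38%, against 179). That count was 304 of 26222 with every gene, 399 with a term for replicates 1 to 3 against 4 and 5, 498 with replicates 1 to 3 alone, 97 to 408 with a library left out, and 135 to 228 in the others. Genes within 2-fold numbered 18798 (replicates 1 to 3) to 20271 (1 fit of 14 libraries) of 20584, 19468 to 20033 with a library left out, and 21148 (80.6%) when every gene was tested, so the bound does not extend to genes under the filter. The likelihood ratio test gives no interval. Same-numbered libraries did not deviate together in every pair (correlations 0.25, -0.11, 0.16 and 0.61), so the numbers were not taken as pairs. With a replicate block 0 genes were called, 227 had an unadjusted p below 0.05 and 20067 were within 2-fold.

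The difference on the first component was -1.97 with the 500 and -2.69 with the 5000 genes of largest variance, -0.73 without scaling, and -25.5 to 61.1 with a library left out. The exact permutation p was 0.429 or more throughout. Of 1872 fold changes of 78 genes under the 24 alternatives, 29 moved by more than 1 SE, no called value reversed and none passed adjustment. Of the genes not held within 2-fold most were below 5 CPM, and how far depth or the spread between pools set their width was not tested.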

Other observations

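*irf5.L*, an interferon regulatory factor chosen after its values were seen, had 8.80, 26.1, 18.2 and 1.77 CPM in *ap3b2* CRISPants, 46.9, 22.0, 24.6, 2.84 and 3.02 CPM in *eef1a2* CRISPants and 15.2, 7.78, 16.5, 2.64 and 1.75 CPM in controls. Replicate 4 of every group, and replicate 5 of the *eef1a2* and control groups, were below replicates 1 to 3. *ccdc39.L*, a gene of motile cilia in the ependyma list, had 6.22, 5.59, 5.26 and 5.26 CPM in *ap3b2* CRISPants and 6.52, 6.77, 6.35, 6.97 and 6.38 CPM in *eef1a2* CRISPants, without overlap (log2 fold change -0.24, SE 0.11, unadjusted p = 0.0491), and 5.50 to 7.72 CPM in controls. *epcam.S*, an epithelial adhesion gene, was at 0.45 (SE 0.19), the highest estimate among 15 epidermis genes. *gria3.L*, an AMPA receptor subunit, was at -0.28 (SE 0.14), and *tshb.S* and *gh1.S*, pituitary hormone genes, were at 0.30 each (SE 0.33 and 0.39). The estimate of *gh1.S* was -0.10 without *ap3b2* replicate 3.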
